A study of Homo sapiens with 2 samples.

Results

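The S100 genes encode small calcium-binding proteins, and 10 of them were followed here between arrays of SW48 cells given a control siRNA or an siRNA against YY1. The 10 members were S100A2, S100A3, S100A4, S100A6, S100A10, S100A11, S100A13, S100A14, S100A16 and S100P, out of 17687 named genes on the array. They were picked up by gene symbol, from a list chosen by looking at levels and differences on these same arrays. Their levels and differences are therefore given as a description, with no test. SW48 is an established human colorectal cancer cell line. Both cultures came from this line and received their siRNA at 5 nmol/L by lipid transfection. The siControl cells received a commercial negative control siRNA and the siYY1 cells a single commercial siRNA against YY1, a zinc finger transcription factor, and RNA was taken after 3 days. Each group had 1 whole-transcript GeneChip array, so no value has a replicate error and no difference can be set against a spread between replicates. The effect of a single siRNA sequence cannot be told apart from that of losing its target, and the level of YY1 was not analysed here, so neither the knockdown nor the labels of the arrays were checked by it.

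An S100 protein carries a pair of EF-hand loops, helix-loop-helix folds that bind calcium, and most S100 proteins work as dimers. On binding calcium the dimer opens a surface that docks onto targets such as annexins, myosin and other cytoskeletal proteins. Several S100 proteins are also secreted and act on cell surface receptors, RAGE (gene AGER) among them. Most S100 genes lie in one cluster on chromosome 1, while S100P lies on chromosome 4. Epithelia express many of them, and levels of several are known to be altered in carcinomas.

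All values below are deposited log2 values, and a difference is siYY1 minus siControl on that scale. A gene passed the expression filter when its mean over both arrays was at least 7.54, the median over named genes, and 8844 genes did so. Of the 10 members, 8 passed, and S100A3 and S100P did not. A gene was called lower or higher by size alone, at 1.5-fold or more between the arrays, which is 0.58 on the log2 scale. By this rule 3.78% of the genes that passed were lower in siYY1, 3.04% were higher, and 6.82% differed either way.

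S100A14, S100A2 and S100A13 were the 3 members called lower in siYY1, and 0 members were called higher. S100A14 was 2.03-fold lower, S100A2 1.85-fold lower and S100A13 1.69-fold lower. The other 5 members that passed the filter differed by 1.21-fold or less, with S100A16, S100A6, S100A10 and S100A11 below 0 and S100A4 above 0. The median difference of the 8 members was -0.23, beside 0.0028 for all genes that passed. Over all 10 members, with no filter, it was -0.14. Of the 8 members, 7 lay below 0, beside 49.6% of all genes that passed. The rule used this contrast, so these counts describe the members and support nothing about them. The dot plot of all S100 genes shows both arrays for each gene.

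**Figure D1:**
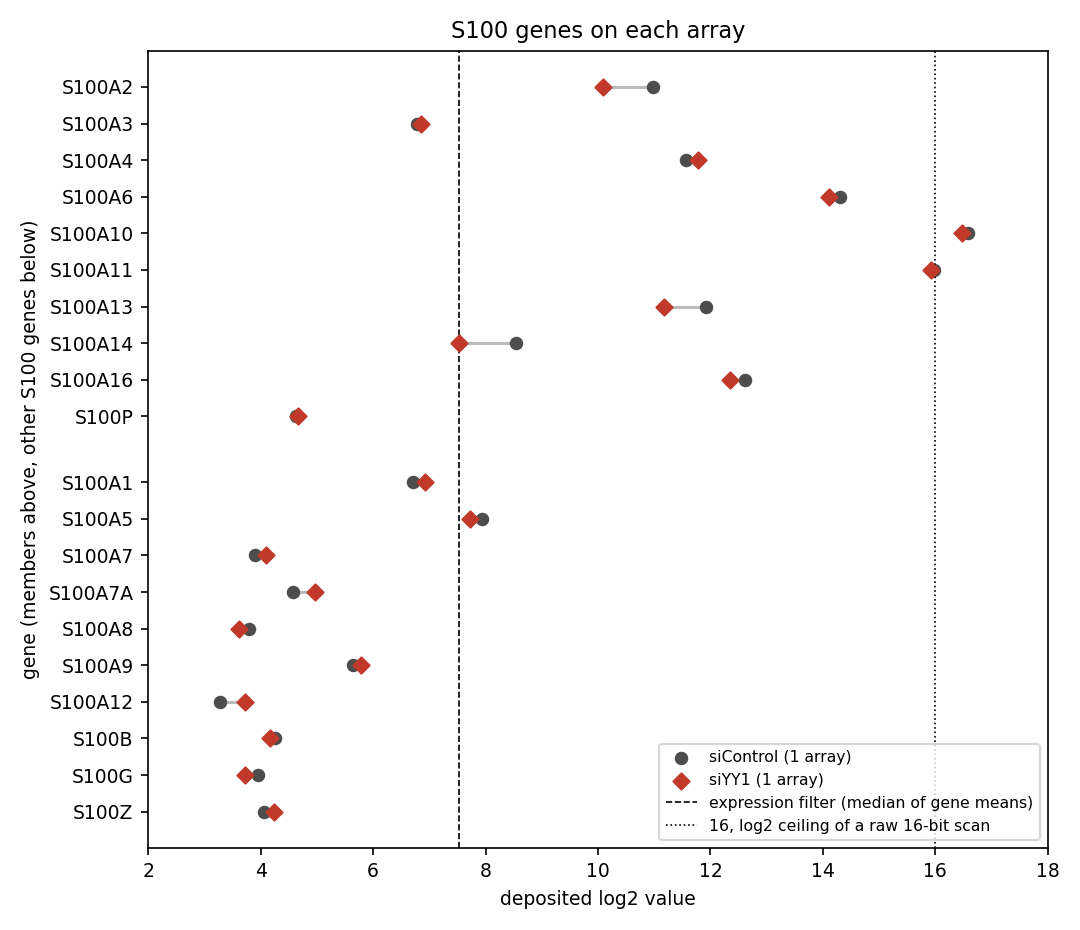
Deposited log2 value (x axis) of each S100 gene (y axis) on the siControl array (grey circles) and the siYY1 array (red diamonds), 1 array each, with the expression filter of 7.54 as a dashed line and 16, the log2 ceiling of a raw 16-bit scan, as a dotted line. The widest gaps among the members are those of S100A14, S100A2 and S100A13, and all but 1 of the other S100 genes lie left of the filter line.

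The upstream sequences of the lower members are printed here because YY1 acts at promoters, with that of S100A4, the member above 0 among those that passed, for contrast. Each is the 250 bases before a RefSeq transcription start (GRCh38.p14, minus strand), read 5′ to 3′. All 10 members matched the RefSeq promoter table, with 14 windows among them, since S100A2 and S100A16 had 2 starts and S100A13 had 3. For S100A2 and S100A13 the window shown is the one that holds a TGANTCA or TATAA match. Capitals mark matches, on either strand, to TATAA (TATA box), TGANTCA (the AP-1 site), AANATGGC (the YY1 consensus) and ATGGC (its core, which lies inside the longer motif).
S100A14, chr1:153616326-153616575: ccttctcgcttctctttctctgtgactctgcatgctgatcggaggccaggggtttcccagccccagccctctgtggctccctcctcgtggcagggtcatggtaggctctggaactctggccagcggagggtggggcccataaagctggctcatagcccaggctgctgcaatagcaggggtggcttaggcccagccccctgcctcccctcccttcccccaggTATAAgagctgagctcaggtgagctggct
S100A2, chr1:153565845-153566094: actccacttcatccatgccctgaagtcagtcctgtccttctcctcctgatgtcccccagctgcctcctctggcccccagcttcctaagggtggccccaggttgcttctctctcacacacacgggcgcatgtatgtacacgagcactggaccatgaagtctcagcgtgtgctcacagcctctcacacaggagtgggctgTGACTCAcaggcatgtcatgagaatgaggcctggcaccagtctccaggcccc
S100A13, chr1:153627506-153627755: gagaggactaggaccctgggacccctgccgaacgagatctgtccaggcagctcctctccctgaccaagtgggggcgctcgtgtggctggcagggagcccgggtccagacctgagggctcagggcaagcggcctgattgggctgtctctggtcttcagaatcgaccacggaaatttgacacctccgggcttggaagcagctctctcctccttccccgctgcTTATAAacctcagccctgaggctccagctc
S100A4, chr1:153545807-153546056: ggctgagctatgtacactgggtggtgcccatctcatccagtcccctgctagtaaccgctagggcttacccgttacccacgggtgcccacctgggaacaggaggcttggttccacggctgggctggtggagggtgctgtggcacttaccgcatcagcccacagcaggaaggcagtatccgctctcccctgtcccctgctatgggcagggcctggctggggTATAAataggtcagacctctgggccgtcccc

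The windows of S100A14 and S100A13 hold TATAA from 29 to 25 bases before the start, and that of S100A4 holds it from 31 to 27 bases before. In S100A13 the preceding T makes the same stretch match on the opposite strand as well. The S100A2 window has no TATAA and holds TGACTCA from 52 to 46 bases before the start. Over all 14 member windows, TATAA was found in 5, one each for S100A4, S100A6, S100A13, S100A14 and S100P, beside 18.9% of 35116 windows of the same length in the whole table. TGANTCA was in 2 windows, those of S100A2 and S100A3, beside 6.57% of all windows. The YY1 consensus AANATGGC was in 0 of the 14, beside 3.86% of all windows. Its core ATGGC was in 4, a second window of S100A2 and of S100A16, the third of S100A13 and that of S100P, beside 29.4% of all windows. None of these 4 is among the windows printed above, which for S100A2 and S100A13 were picked by a TGANTCA or TATAA match. These matches describe letters in short windows and are no evidence for or against binding of any factor.

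S100A14 and S100A2 are known mainly from epithelia. S100A14 is found at the membrane and in the cytoplasm of epithelial cells, and its value was 8.54 in siControl and 7.52 in siYY1. Its difference of -1.02 ranked 48 from the lowest of the 8844 genes. The siYY1 value lay just under the filter value of 7.54 where expression above background was not established, so the size of this difference is uncertain. Among genes with a mean within 0.5 of that of S100A14, 5.11% were called lower, so calls were more frequent at this level than over all genes that passed. At 2-fold or more, S100A14 was the only member called lower, beside 0.577% of the genes that passed.

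S100A2, a mostly nuclear S100 protein of basal epithelial cells that can bind p53, was measured at 10.97 in siControl and 10.09 in siYY1. Both values lay well above the filter, and the difference of -0.89 ranked 81 from the lowest. Of genes with a mean within 0.5 of that of S100A2, 3.82% were called lower. S100A16, a broadly expressed member whose gene lies between those of S100A2 and S100A14, went from 12.62 to 12.35. Its difference of -0.27 was not called, although the genes on either side of it were.

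S100A13 takes part in the export of FGF1, a growth factor that lacks a signal peptide. It was measured at 11.93 in siControl and 11.17 in siYY1. The difference of -0.76 ranked 148 from the lowest. Both arrays lay far above the filter, and 3.08% of genes with a mean within 0.5 of its own were called lower. FGF1 itself was dim, at 5.34 in siControl and 5.29 in siYY1. In the RefSeq table the span of S100A13 contains all 3606 bases of S100A1, whose start lies on the opposite strand. S100A1, known from heart muscle, lay under the filter at 6.72 in siControl and 6.92 in siYY1, and expression above background was not established there. S100A13 also shares 296 bases with CHTOP, and S100A4 shares 65 with S100A5. No source used here gives the probe positions, so whether the probes separate these overlapping genes was not tested.

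S100A10 and S100A11 are the members best known for binding annexins. S100A10, also called p11, joins ANXA2 in a complex at the cell membrane and has lost the ability to bind calcium. Its value was 16.58 in siControl and 16.48 in siYY1, which is a difference of -0.10. ANXA2 went from 16.85 to 16.68, a difference of -0.17. Both genes lay above 16, the log2 ceiling of a raw 16-bit scan, on both arrays. Deposited values reached 17.97, so the deposited scale is not the raw scan's, and whether bright probes were saturated was not tested. Small differences of such bright genes therefore do not show that they were stable. S100A11, a partner of ANXA1, was at 15.98 in siControl and 15.92 in siYY1, and ANXA1 itself at 17.18 and 17.05. The RefSeq table lists 10 pseudogenes of S100A11, which probes may share, and so its value is uncertain.

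S100A6 and S100A4 act on the cytoskeleton and on protein turnover. S100A6, or calcyclin, went from 14.30 in siControl to 14.11 in siYY1, a difference of -0.19. CACYBP, the calcyclin-binding protein that links S100A6 to ubiquitin ligases, went from 14.09 to 14.20. S100A4, which loosens non-muscle myosin filaments and is known for its link with metastasis, was at 11.57 in siControl and 11.79 in siYY1. This difference of 0.22 was the only one above 0 among the 8 members that passed the filter, and it was not called. MYH9, the myosin heavy chain that S100A4 binds, went from 12.55 to 12.74.

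S100A3 and S100P did not pass the filter. S100A3, a cysteine-rich protein of the hair cuticle, was at 6.79 in siControl and 6.85 in siYY1. S100P, first found in placenta and often abundant in tumours of the gut and pancreas, was at 4.63 in siControl and 4.67 in siYY1. Expression above background was not established for either gene, so their differences of 0.06 and 0.04 say nothing about a change. EZR, which encodes the membrane linker ezrin that S100P can activate, was at 16.42 and 16.47.

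**Figure D2:**
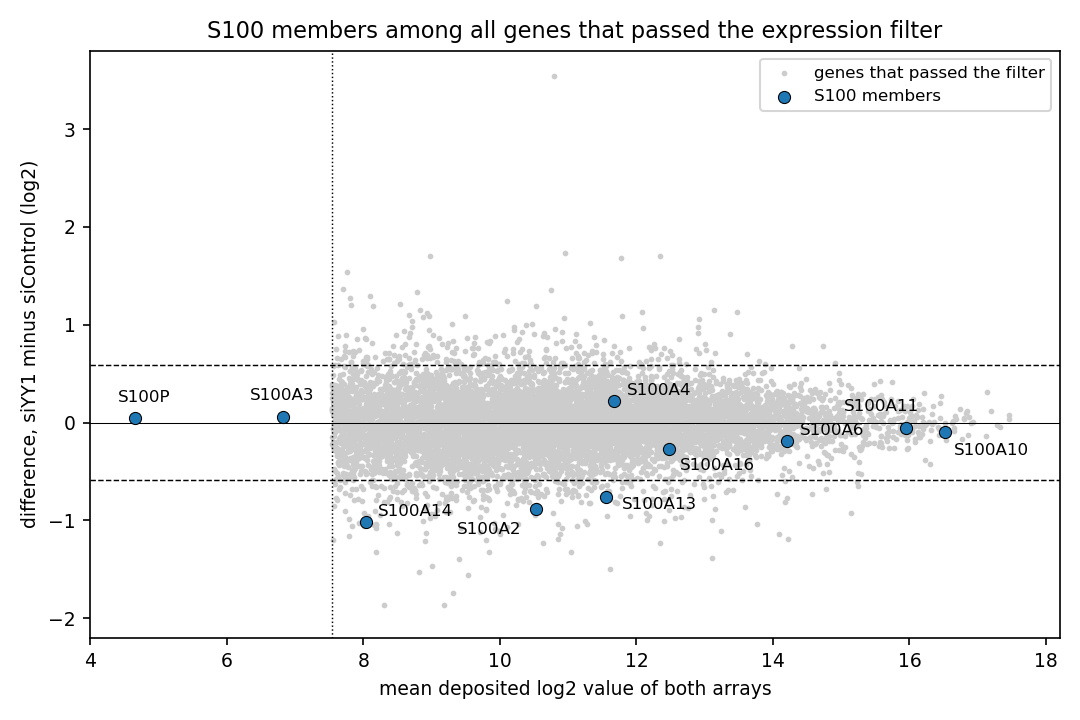
Difference between the arrays (y axis, siYY1 minus siControl, log2) against the mean of both arrays (x axis, log2) for the 8844 genes that passed the expression filter (grey) and the 10 S100 members (blue). Dashed lines mark 1.5-fold and the dotted line the filter. S100A14, S100A2 and S100A13 lie below the lower dashed line and the other 7 members between the lines, with S100P and S100A3 left of the filter.

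The scatter between the arrays narrowed as genes became brighter. The median absolute difference was 0.21 for genes under the filter, 0.18 for those that passed and 0.14 for the brightest 25% of these, with means of at least 12.31. Of genes under the filter, 8.94% lay past 1.5-fold either way, and of the brightest 25% of those that passed 3.44% did, with 2.04% on the lower side. S100A6, S100A10, S100A11 and S100A16 belong to this brightest set, and none of these 4 was called.

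Of the other S100 genes, 10 were measured, and only S100A5 passed the filter. S100A5, known from olfactory neurons, went from 7.94 to 7.73, a difference of -0.21. The calprotectin genes S100A8 (3.79 in siControl and 3.62 in siYY1) and S100A9 (5.64 and 5.78), both abundant in neutrophils, were dim on both arrays. S100A12, another S100 protein of neutrophils, was at 3.28 and 3.72. The psoriasin genes of inflamed skin were dim as well, S100A7 at 3.90 and 4.10 and S100A7A at 4.57 and 4.98. S100B, known from glia, was at 4.25 and 4.17, S100G, an intestinal calcium carrier induced by vitamin D, at 3.94 and 3.72, and S100Z at 4.07 and 4.24. With S100A1, 9 of these 10 genes lay under the filter on both arrays. Their differences ran from -0.23 for S100G to 0.44 for S100A12. Of the 9, 0 lay past 1.5-fold, beside 8.94% of all genes under the filter. None of the 7 genes that fuse an S100 domain to a long repeat, such as FLG for filaggrin, passed the filter.

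The lower members sit close together in the chromosome 1 cluster. In the RefSeq gene order S100A2, S100A16, S100A14 and S100A13 follow each other directly, so the 3 lower members and S100A16 form one unbroken run. On one side the run borders on S100A3 (difference 0.06), S100A4 (0.22) and S100A5 (-0.21), and on the other on S100A1 (0.20) and CHTOP, a chromatin protein gene, at 12.26 and 12.09. The next gene, SNAPIN, a regulator of vesicle fusion, went from 8.42 to 7.84, a difference of -0.583 that fell just short of 1.5-fold. ILF2 beyond it was at 14.96 and 14.78. S100A10 and S100A11 stand apart from this run, with THEM4 (11.80 and 11.75) and the dim TCHHL1 (4.18 and 4.06) beside them. S100A6 lies beside S100A7 and S100A5.

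Over the whole stretch, from 10 protein-coding genes before S100A10 to 10 after S100A1, 64 neighbours other than S100 genes were measured. Of these, 14 passed the filter, with 9 below 0, 5 above 0, 0 called in either direction and a median of -0.087. Among all genes that passed, 49.6% lay below 0 and 6.82% were called either way. With so few neighbours, 0 called is close to that share and is no result about them. The 0 hangs on SNAPIN, whose difference of -0.583 lay just inside the threshold of 0.585. Median centring, which subtracts 0.0028 from all genes, takes SNAPIN past 1.5-fold on the low side. The 14 include the skin barrier genes LCE1E (14.04 and 14.09), LCE1C (11.70 and 11.58) and LCE3B (7.85 and 7.63). What these probe sets measure in this line was not tested. The remaining 50 neighbours were dim, most of them also genes of the skin barrier. In this dim group OAZ3 (difference 1.15) and LCE1B (0.59) lay past 1.5-fold on the high side and RPTN (-0.81), SPRR1B (-0.92) and DENND4B (-0.60) on the low side. Expression above background was not established for any of these 5 genes. Of all genes under the filter, 8.94% lay past 1.5-fold either way, so 5 of 50 is near that share.

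**Figure D3:**
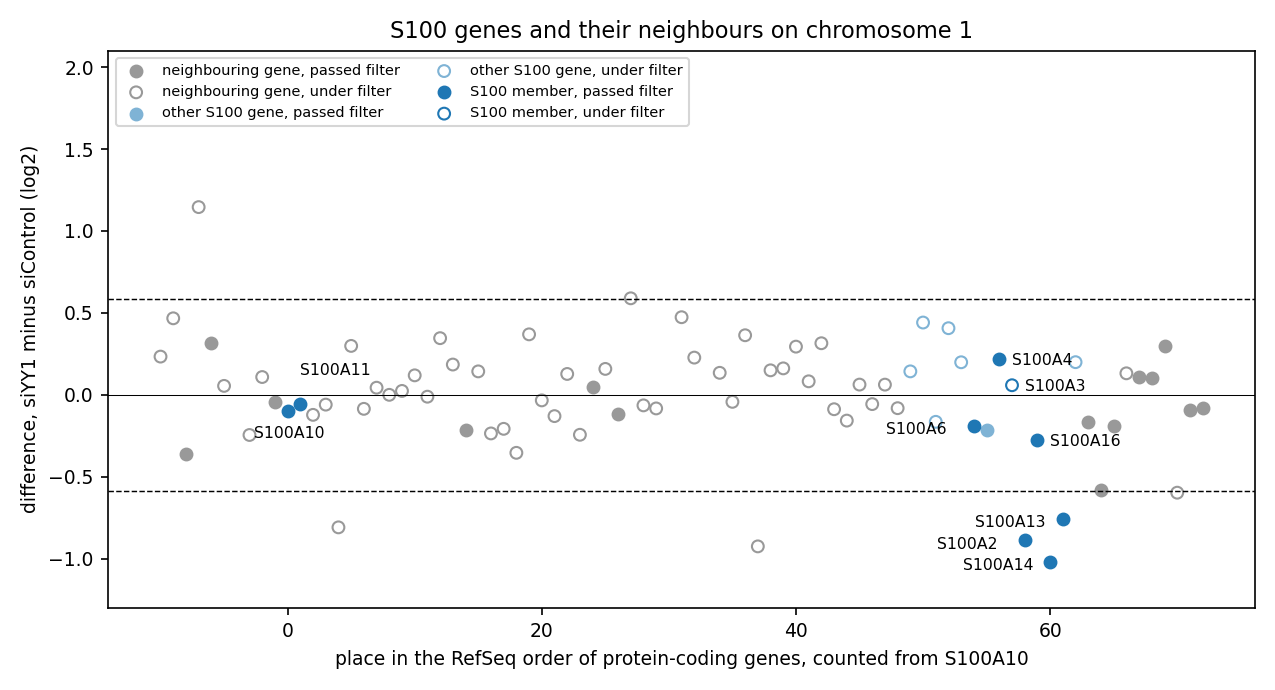
Difference between the arrays (y axis, siYY1 minus siControl, log2) of the S100 genes (blue for members, light blue for others) and neighbouring genes (grey) by their place in the RefSeq order of protein-coding genes on chromosome 1 (x axis). Filled points passed the expression filter, open points did not, and dashed lines mark 1.5-fold. S100A2, S100A14 and S100A13 are the only filled points past 1.5-fold, and the neighbour SNAPIN lies just inside the lower dashed line.

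Annexins, calcium-dependent membrane-binding proteins and the main partners of the family, were compared from a list of 12. Of 9 that passed the filter, 6 lay below 0 and 3 above 0, with a median of -0.13. Among all genes that passed, 49.6% lay below 0 and 6.82% were called either way. ANXA3 was the only annexin called, going from 12.09 to 11.28, a difference of -0.81. Among the others ANXA4 differed by -0.39 and ANXA5 by 0.39, so the family did not move in one direction. The wider list of binding partners had 17 genes that passed, 7 below 0 and 10 above 0, with 0 called and a median of 0.044. That 0 also stands beside the 6.82% of all genes that passed, and with so few genes it is a description only. ANXA4 and ANXA5 held the ends of the partner list, and S100PBP, which binds S100P, went from 10.72 to 10.92.

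Cell surface proteins that bind S100 ligands had 5 genes that passed the filter, all above 0, beside 50.4% of all genes that passed. Of the 5, 0 were called, beside 6.82% of all genes that passed, and their median was 0.31. ERBB4 passed only through its siYY1 value of 7.70, since its siControl value of 7.39 lay under the filter. These counts describe the 5 genes and were not tested. The 5 genes ranged from BSG, the gene of basigin, at 15.73 and 15.95 (0.22) to the adhesion receptor ALCAM at 10.96 and 11.43 (0.47). CD36, a scavenger receptor, was among the brightest, at 16.98 and 17.29. The classical S100 receptors were dim, AGER at 5.30 and 5.37 and TLR4 at 3.83 and 4.67. In the plasmin system, for which the S100A10 and ANXA2 complex is a surface receptor, 4 genes passed, 2 below 0 and 2 above 0. PLAUR, the urokinase receptor, was called lower, going from 11.45 to 10.31, a difference of -1.14. It was the only gene called of these 4, beside 3.78% called lower among all genes that passed. The protease genes PLAU (-0.15) and PLAT (0.13) and ENO1 (0.0017) were not called.

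Genes with EF hands outside the S100 family were compared next. Of 24 that passed the filter, 9 were below 0 and 15 above 0, with a median of 0.087, while 50.4% of all genes that passed were above 0. RCN2, an endoplasmic reticulum protein, was called lower (13.13 and 12.17, difference -0.97), as was PEF1, an adaptor of a ubiquitin ligase that acts on secretory vesicles (8.23 and 7.55, difference -0.68). The siYY1 value of PEF1 lay close to the filter value of 7.54, so the size of its difference is uncertain. None of the 24 was called higher, and the highest was the calcium sensor STIM2 at 0.44. The 2 of 24 called lower compare with the 3.78% given above for all genes that passed.

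**Figure D4:**
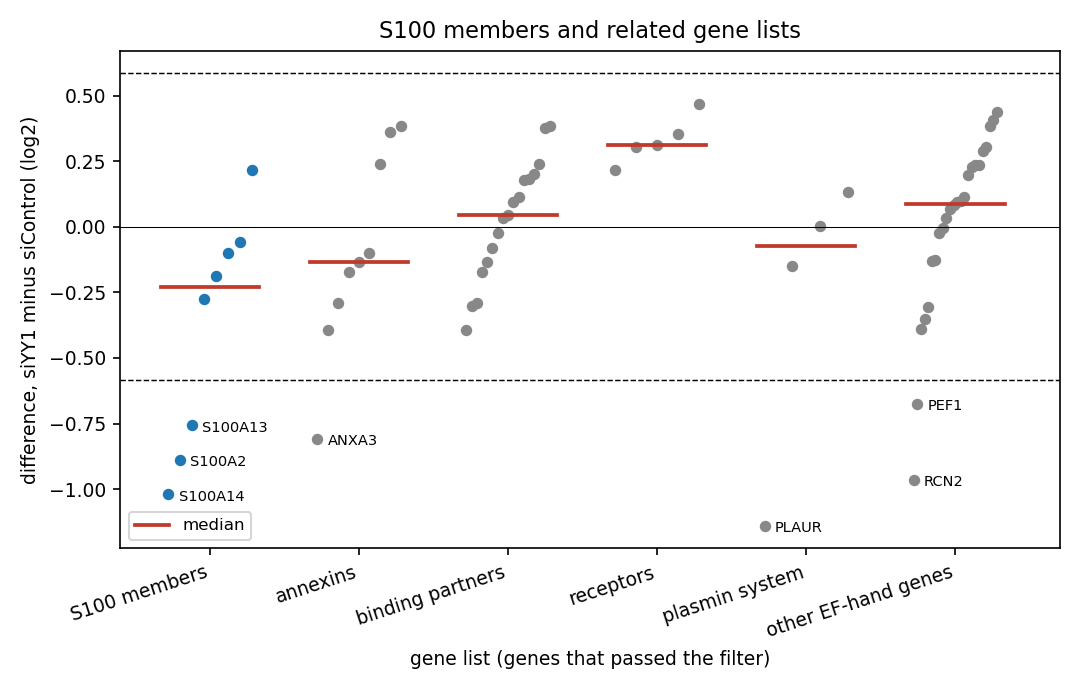
Difference between the arrays (y axis, siYY1 minus siControl, log2) of each gene that passed the expression filter, by gene list (x axis), with the median of each list as a red line and 1.5-fold as dashed lines. Genes past 1.5-fold are named: S100A14, S100A2 and S100A13 among the members, ANXA3, PLAUR, RCN2 and PEF1 in the other lists, all on the lower side.

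Of 9 epithelial and intestinal markers measured, 7 passed the filter. Their ends were the keratin gene KRT19 (14.67 in siControl and 14.33 in siYY1, difference -0.34) and the adhesion molecule gene EPCAM (16.04 and 16.24, difference 0.19), with KRT18 (-0.20), CDH17 (-0.02), KRT8 (0.01), CDH1 (0.02) and CDX2 (0.16) between them. CDX1 and VIL1 were dim. The 7 markers had a median difference of 0.0086 and 0 were called, beside 6.82% of all genes that passed. Markers of cells known for other S100 genes were mostly dim. Of 10 myeloid markers, S100A8, S100A9 and S100A12 among them, 1 passed the filter, CD68. It was called lower, going from 8.72 to 7.64 (2.12-fold, a larger difference than that of any S100 member). The siYY1 value of CD68 lay close to the filter value of 7.54, so the size of its difference is uncertain. The myeloid list did not move in one direction, with a median difference of 0.047 over all 10. LYZ, under the filter on both arrays, lay past 1.5-fold on the high side, at 5.37 and 6.35, a difference of 0.98. Expression above background was not established for LYZ. PTPRC, the defining leukocyte gene, was dim at 4.91 and 5.35. Of 8 fibroblast markers 1 passed, COL1A2 (8.60 and 9.05), and of 10 keratinocyte markers and 6 of melanocytes or Schwann cells 0 passed. Their part in the S100 differences was not tested. The reference genes ACTB (0.11) and GAPDH (-0.03) were not called. GAPDH, EPCAM and KRT8 lay above 16 on both arrays, where small differences do not show that a gene was stable. The same limit applies to ANXA1, EZR, ENO1 and CD36.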

How the data were processed

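Total RNA from SW48 cultures was measured on GeneChip whole-transcript arrays, 1 per group, with groups read from the sample titles. The authors deposited 1 log2 value per probe set (21448 in all). That these are log2 values was read from their range, 2.46 to 17.90 in siControl and 2.32 to 17.97 in siYY1, and no source used here states the software, normalization or log base. Folds take the values as plain log2. GEO's platform annotation gave 17709 probe sets a gene symbol, and 3739 are unnamed here. Probe sets of 1 gene were averaged (20 genes), and each of the 20 S100 genes measured had 1.

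With 1 array per group no test was made, and precision is limited by that number. Members and gene lists were chosen with earlier results of these data known. Of each list, the genes named were those that passed the filter and lay past 1.5-fold, or else those at its ends. A few fixed partners and all S100 genes were named as well. Not every gene under the filter that lay past 1.5-fold was named. Alternatives were other filters, scalings, fold thresholds (1.3 and 2) and the brightest probe set. The size rule was also run on simulated data, with the same noise for all genes and inserted shifts of 2-fold or more. Such shifts lie past 1.5-fold from the outset, so this run does not measure the error of calls on these arrays. Promoter windows and gene order came from RefSeq (GRCh38.p14). Python 3.11.15, numpy 2.4.6, pandas 2.3.3, statsmodels 0.14.6 and matplotlib 3.10.9 were used.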

Additional observations from a re-analysis of the deposited data

How the results depend on the processing

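Quantile normalization and lowess centring (fraction 0.3) left all 20 recomputed member differences on the same side of 1.5-fold and moved them by at most 0.037. Other filters and the brightest probe set cannot change a member's difference, since each S100 gene has 1 probe set, and median centring subtracts 0.0028 from all. That shift takes the neighbour SNAPIN past 1.5-fold on the low side, so the neighbour count of 0 called depends on the scaling. The count of 3 lower members was 1 with the filter at the 75th percentile, which leaves S100A2 and S100A14 out, and 1 at 2-fold, and it was 3 at 1.3-fold. The members' median was -0.14 both with that filter and with none. The share of all genes that passed and lay past the threshold in either direction was 19.6% at 1.3-fold and 0.950% at 2-fold. On the lower side alone, as in the member counts, it was 0.577% at 2-fold. The median of all genes that passed was 0.0067 after quantile normalization and 0.0020 after lowess centring. No paired analysis was possible because each group has 1 array.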
